A study of Mus musculus with 6 samples.

Results

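This report concerns 8 genes of the caspase pathway, Casp2, Casp6, Casp8, Casp9, Apaf1, Xiap, Birc2 and Diablo, out of 27179 genes listed for the B16F10 cells. The members were taken by gene symbol and each had 1 row in the table. B16F10 is an established mouse melanoma line that carries no engineered change according to its labels (genotype WT). RNA was sequenced from 3 cultures given 0.01% olive oil (OLO) for 6 h and from 3 cultures given 0.01% ozonated olive oil (OZO) for 6 h, all in DMEM with fetal bovine serum. The study asked which form of cell death OZO induces, and a caspase inhibitor was among its reagents. The only value used here is the authors' mean level of each gene over all 6 libraries, in log2 CPM (read counts scaled to a common library size, on a log scale of base 2). OZO and OLO enter this mean together, so the levels describe B16F10 cells under both oils and no difference between OZO and OLO was analysed here. The column gives no spread between cultures, and no test was run.

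Caspases are cysteine proteases that are made as inactive precursors and carry out apoptosis. Casp8 starts the cascade below death receptors, Casp9 starts it on the apoptosome that Apaf1 forms when cytochrome c leaves mitochondria, Casp2 is an initiator linked to DNA damage and the PIDDosome, and Casp6 is an executioner that cuts lamins. Xiap binds and blocks caspases, Birc2 (cIAP1) is a ubiquitin ligase of TNF receptor signalling, and Diablo (Smac) is a mitochondrial protein that frees caspases by binding these inhibitors of apoptosis (IAPs).

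The coding sequences that carry these functions are shown for the caspases, since the 4 enzymes are defined by them. The capitals mark the 5 codons of the catalytic pentapeptide, which holds the active-site cysteine, with 21 bases on either side, read 5′ to 3′ on the coding strand from GENCODE M21 transcripts (GRCm38).
Casp2: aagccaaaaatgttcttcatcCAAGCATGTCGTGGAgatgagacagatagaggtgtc
Casp6: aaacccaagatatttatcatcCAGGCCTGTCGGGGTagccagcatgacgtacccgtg
Casp8: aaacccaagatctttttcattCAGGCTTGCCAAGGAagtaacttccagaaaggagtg
Casp9: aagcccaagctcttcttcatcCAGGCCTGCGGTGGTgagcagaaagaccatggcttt

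The fourth codon encodes arginine in Casp2 and Casp6, glutamine in Casp8 and glycine in Casp9, whereas the other 4 residues are shared by the motif that was searched. Casp6 and Casp9 had 12 of these 15 bases in common, and the other pairs had 10 or 11. The motif that was searched already fixes most bases of 4 of the 5 codons. Over the 57 bases shown, Casp2 and Casp9 were the closest pair with 38 in common, and Casp6 and Casp9 had 37. The site lies in exon 8 of 11 in Casp2 (chr6:42276770-42276784), in exon 9 of 10 in Casp8 (chr1:58844613-58844627) and in exon 6 of 9 in Casp9 (chr4:141807247-141807261). In Casp6 it crosses from exon 5 into exon 6 (chr3:129910696-129912129). Of the 3 coding transcripts of Casp9 in the annotation, 2 contain the site, so reads of Casp9 can come from a transcript without it. Gene-level values cannot tell these transcripts apart.

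For Diablo, the capitals mark the 4 codons of the peptide that binds IAPs once the mitochondrial leader has been removed (exon 2 of 6, chr5:123523261-123523272, minus strand).
Diablo: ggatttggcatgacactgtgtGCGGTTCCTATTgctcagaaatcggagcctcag

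This tetrapeptide starts at residue 54 of 237 and is present in each of the 7 coding transcripts annotated for Diablo.

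All 8 members had reads, and all lay above 1 CPM, as did 43.7% of the 27179 rows. The members were chosen with earlier results of these data known, so this share is background and not a result about them. Without correction for length, levels ranged from 11.9 CPM for Casp6 to 141 CPM for Xiap, an 11.9-fold range, with a median of 5.79 log2 CPM. Per kilobase of the longest transcript the range was 5.41-fold, from Casp9 to Casp8. The median of the 21154 genes with reads was 1.45 log2 CPM, and that of the 11878 genes with at least 1 CPM was 4.98. Depth was high enough for the members' counting error to be small. On average (geometric mean) 1 CPM stood for 19.6 reads in a library, and the members rested on 234 (Casp6) to 2778 (Xiap) reads per library. The 95% counting interval (exact Poisson) reached 1.52% to 5.26% to either side of the level, which covers counting error only and not the spread between cultures.

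**Figure D1:**
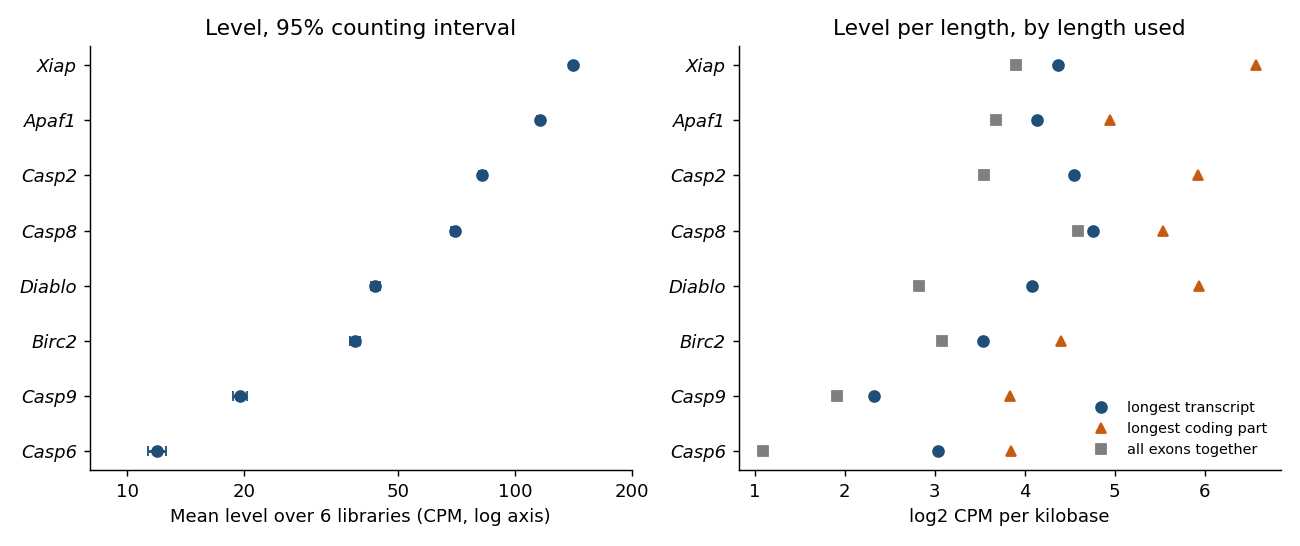
Left, mean level of each member over the 6 libraries (CPM, log axis) with its 95% Poisson counting interval as bars, mostly hidden by the points. Right, the same level per kilobase (log2) for 3 definitions of length. Xiap leads on the left at 141 CPM, and Casp6 and Casp9 lie lowest in both panels with each length.

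Among the initiator caspases, Casp2 (chr6:42264985-42282508, plus strand) was at 6.36 log2 CPM (82.4 CPM, counting interval 80.8 to 84.0). Casp8 (chr1:58795374-58847503, plus strand) followed at 6.13 log2 CPM (70.0 CPM, counting interval 68.5 to 71.5). Casp9 (chr4:141793612-141815976, plus strand) was at 4.29 log2 CPM (19.5 CPM, counting interval 18.7 to 20.3). In percentiles of the genes with reads, Casp2 was at 85.7, Casp8 at 83.4 and Casp9 at 65.7. Among genes with at least 1 CPM they were at 74.6, 70.4 and 39.0, so Casp9 lay below the median of that pool. Before correction for length, Casp2 and Casp8 were thus close to each other, and Casp9 was well below both. Levels of different genes can be compared only per length, because a longer transcript gives more reads. Per kilobase of the longest transcript, Casp8 was at 4.76 (percentile 85.8), Casp2 at 4.55 (percentile 83.5) and Casp9 at 2.32 log2 CPM (percentile 59.0). Casp8 was therefore 5.41-fold and Casp2 4.66-fold above Casp9 per kilobase. This gap held with the coding length, where Casp8 was 1.70 and Casp2 2.08 higher than Casp9 on the log2 scale, and with all exons together, where the differences were 2.69 and 1.64. The order of Casp2 and Casp8 depended on the length used, since Casp2 was 0.21 lower per kilobase of transcript but 0.38 higher per kilobase of coding sequence on the log2 scale, and with all exons together it was at 3.55 against 4.60 for Casp8.

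Casp6, the executioner among the members (chr3:129901425-129914103, plus strand), was at 3.58 log2 CPM (11.9 CPM, counting interval 11.3 to 12.6), at the percentile of 60.1 among genes with reads. Among genes with at least 1 CPM its percentile was 29.0, below the median of that pool. Its longest transcript is also the shortest of the 8, with 1456 bases, and per kilobase it stood at 3.03 log2 CPM. Casp9 was 0.71 below Casp6 per kilobase of transcript on the log2 scale. With the coding length Casp6 was at 3.85 and Casp9 at 3.84 log2 CPM per kilobase, and with all exons together Casp9 was 0.81 above Casp6. These genes could therefore not be ordered, whereas both stayed below the other 6 members with each of the 3 lengths.

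Apaf1, the scaffold of the apoptosome (chr10:90989311-91082770, minus strand), was at 6.86 log2 CPM (116 CPM, counting interval 114 to 118). Its transcript is long, with 6577 bases in 27 exons, and per kilobase it was at 4.14 log2 CPM. Apaf1 was 3.52-fold above its partner Casp9 per kilobase of transcript. On the log2 scale this was a difference of 1.82, against 1.11 with the coding length and 1.77 with all exons together. The transcript of the scaffold was thus higher than that of the caspase it recruits with each length.

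Of the 2 IAPs, Xiap (chrX:42059679-42109656, plus strand) was at 7.14 log2 CPM (141 CPM, counting interval 139 to 144), at the percentile of 92.2. Birc2 (chr9:7818227-7837064, minus strand) was at 5.28 log2 CPM (38.7 CPM, counting interval 37.6 to 39.9), at the percentile of 74.9. The longest Xiap transcript has 6834 bases and that of Birc2 3331. Per kilobase of transcript, Xiap was at 4.37 (percentile 81.5) and Birc2 at 3.54 log2 CPM (percentile 71.5), a 1.78-fold difference. Xiap remained higher with the coding length, by 2.17 on the log2 scale, and with all exons together, by 0.82. The 3′ UTR of Xiap spans 4672 bases and its coding part 1488 bases, whereas Birc2 has a 3′ UTR of 523 bases and a coding part of 1836 bases.

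Diablo, the IAP antagonist (chr5:123509765-123524176, minus strand), was at 5.45 log2 CPM (43.7 CPM, counting interval 42.5 to 44.9), at the percentile of 76.5. Per kilobase it was at 4.08 log2 CPM, between Apaf1 and Birc2 in the order of the members. Xiap was 0.29 higher than Diablo per kilobase of transcript on the log2 scale, and 0.63 and 1.08 higher with the coding length and with all exons together. Birc2 was 0.54 lower than Diablo per kilobase of transcript and 1.54 lower with the coding length, whereas with all exons together Birc2 was at 3.08 and Diablo at 2.82 log2 CPM per kilobase. Diablo is also the member with most exon sequence in common with other genes. Of the 6166 exon bases annotated for it, 2519 (40.9%) are shared, with 1326 in B3gnt4 on the opposite strand and 1193 in Gm49027 on the same strand. The strand setting used in counting is not given in the sources used here, and no strand setting could set apart reads shared with Gm49027. The part of these genes in the Diablo level was not tested. In Casp9, 94 exon bases are shared with Cela2a and Ctrc on the opposite strand, and the exons of the other 6 members are shared with no annotated gene. The transcript used for its length, the longest one at 2588 bases, has a coding part of only 471 bases, whereas the longest coding part of Diablo has 711 bases.

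**Figure D2:**
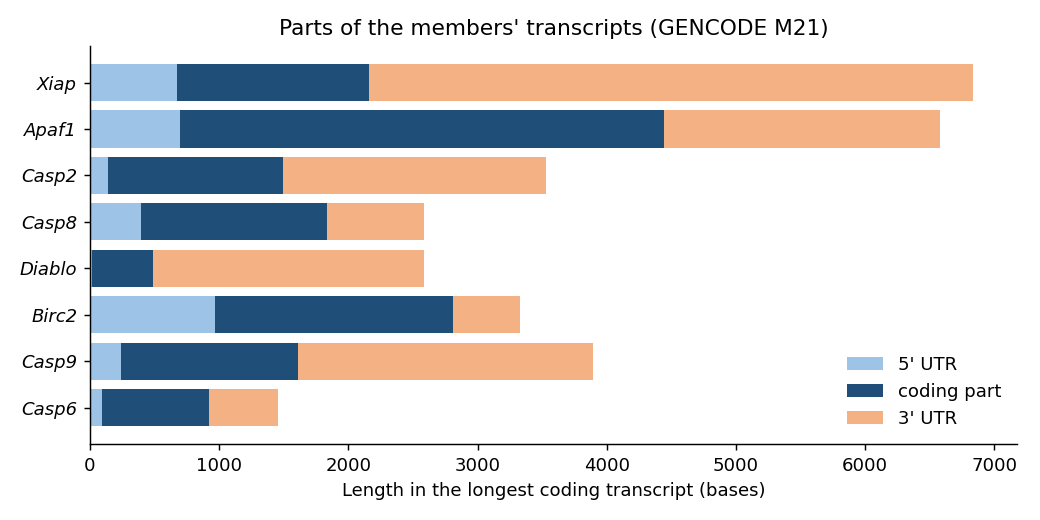
Lengths in bases of the 5′ UTR, coding part and 3′ UTR in the longest coding transcript of each member, ordered by level from Xiap at the top to Casp6 at the bottom. Xiap has the longest 3′ UTR (4672 bases) and Apaf1 the longest coding part (3747 bases).

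In order of level per kilobase of transcript, the members ran from Casp8 through Casp2, Xiap, Apaf1, Diablo, Birc2 and Casp6 to Casp9. The first 5 lay within 0.68 of each other on the log2 scale. The steps between neighbours were 0.21, 0.17, 0.23, 0.06, 0.54, 0.51 and 0.71 on the log2 scale. Without values of single libraries it was not tested which of these neighbours differ beyond the spread between cultures. With the coding length the first 5 places changed hands, whereas Birc2, Casp6 and Casp9 kept theirs.

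**Figure D3:**
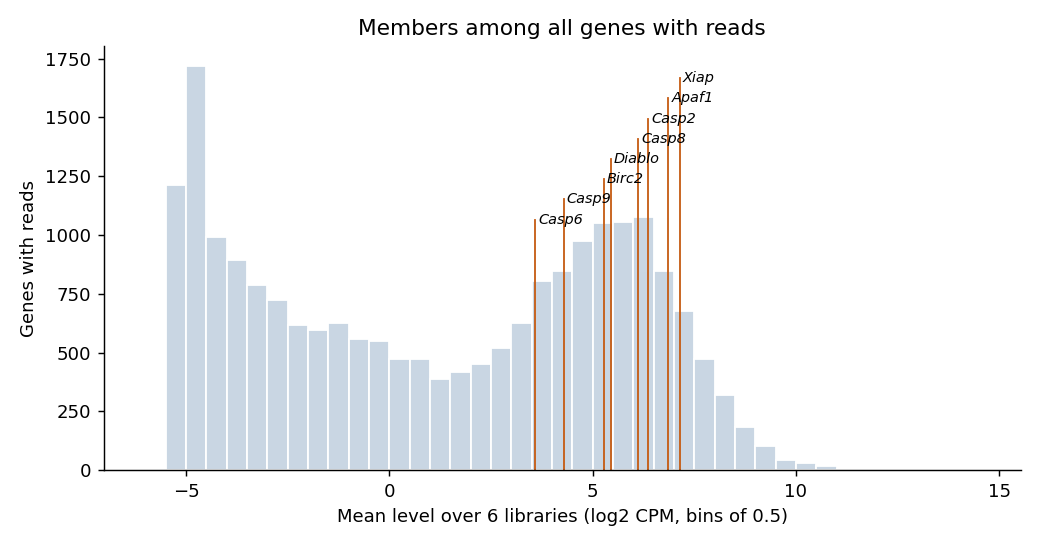
Number of genes with reads by mean level (log2 CPM, bins of 0.5), with a line at the level of each member (line heights carry no value). The 8 members lie between 3.58 and 7.14 log2 CPM, in the upper of the 2 humps of the distribution.

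Beyond the members, 4 further caspases were examined, and none of these 4 reached 1 CPM. Casp1 (-2.29 log2 CPM) and Casp4 (-2.27 log2 CPM), caspases of inflammation and pyroptosis, were named after their values were seen. Casp12 was at -4.77 log2 CPM, close to the lowest value of -5.30 that a gene without any read receives. Casp14, the caspase of keratinocyte cornification, had no read in the 6 libraries, which allows up to 3 reads in all or 0.0255 CPM. Each of the 4 members that are caspases lay above each of these 4, with Casp6 at 3.58 log2 CPM. The members were chosen with earlier results of these data known, so this contrast is a description only.

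Of 10 IAP genes, 5 had at least 1 CPM. Birc6, a very large ubiquitin ligase, was at 8.37 log2 CPM, and per kilobase of transcript it was at 4.39 against 4.37 for Xiap. With the coding length Birc6 was at 4.50 and Xiap at 6.57, and with all exons together they were at 3.68 and 3.90. Birc5 (survivin), which acts in cell division, was at 7.15 log2 CPM and 5.41 per kilobase. Birc3 (cIAP2), the close paralog of Birc2, was at -4.77 log2 CPM, near the lowest value, and the genes are neighbours on chromosome 9 with 11634 bases between them. Birc7 (livin) was at -4.91 log2 CPM. Reads that fit both Birc2 and Birc3 could be split or dropped in counting, which was not tested.

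Of the 4 IAP antagonists, 3 had at least 1 CPM. Htra2, a mitochondrial protease that also binds IAPs, was at 4.83 log2 CPM and, per kilobase of transcript, at 4.04 against 4.08 for Diablo. With the coding length Htra2 was at 4.37 and Diablo at 5.94, and with all exons together the order turned (3.27 against 2.82). Xaf1, which binds Xiap, was at 1.11 log2 CPM, and Septin4, whose ARTS isoform binds Xiap, at -0.09 log2 CPM.

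All 8 genes listed for the apoptosome and the platforms of initiator caspases had at least 1 CPM. Cycs, which encodes cytochrome c, the ligand of Apaf1, was at 8.82 log2 CPM. Whether some of its reads come from processed copies was not tested. Cflar (c-FLIP), the inhibitor of Casp8, was at 7.68 log2 CPM, and per kilobase of transcript it was at 4.96 against 4.76 for Casp8. This order held with the coding length (7.14 against 5.54) but turned with all exons together (4.01 against 4.60). The gene lies 36489 bases from Casp8 on chromosome 1. Cradd, the adaptor of Casp2, was at 1.86 log2 CPM (3.63 CPM), and Tradd at 7.98 CPM. Of 5 death receptors, 3 had at least 1 CPM. Tnfrsf1a, the TNF receptor, was at 6.10 log2 CPM, whereas Tnfrsf21 was at 0.52, Tnfrsf10b at -0.25 and Fas at -3.44 log2 CPM. Among 8 caspase substrates, all with at least 1 CPM, Parp1 was at 8.14 and Acin1 at 7.81 log2 CPM. Dffb, the DNase released by caspases, was at 1.03 log2 CPM, and its inhibitor Dffa was at 4.50 log2 CPM.

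**Figure D4:**
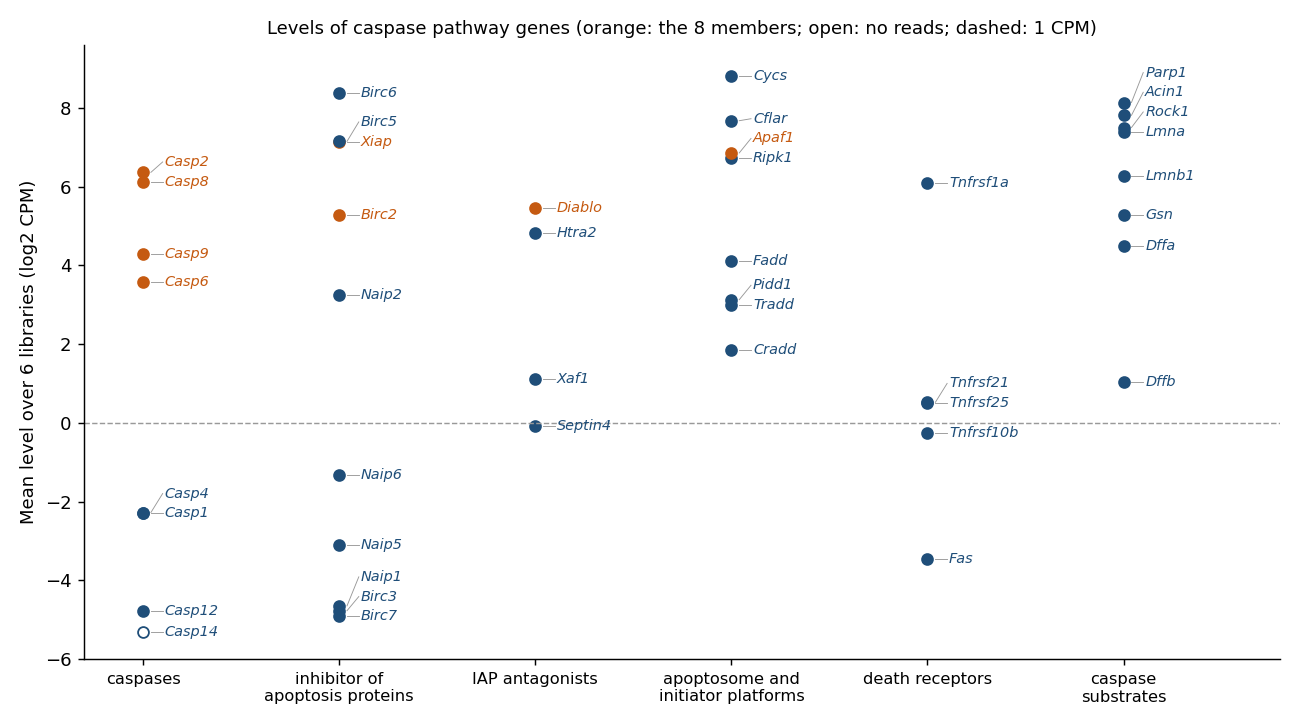
Mean level over the 6 libraries (log2 CPM) of the genes examined in 6 lists of the caspase pathway, with the 8 members in orange, an open circle for the gene without reads and a dashed line at 1 CPM. The members lie between 3.58 and 7.14 log2 CPM, while Casp1, Birc3 and Fas fall below the line.

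The RefSeq start regions of the members differed widely in CpG content, a feature the choice of members did not use. RefSeq promoters (250 bases before to 50 bases after the start, GRCm38.p6) were found for all 8 members, 11 in all. Taking for each gene its promoter with most CpG dinucleotides, Apaf1 had 46, Diablo 42, Birc2 34, Casp9 28, Casp2 26, Xiap 20, Casp6 16 and Casp8 5. The median over the 9216 genes with at least 1 CPM and a promoter was 23, and it was 3 over the 2256 genes without reads. A CpG count as low as that of Casp8 was found in 5.50% of the genes with at least 1 CPM. The only Casp8 promoter in the table belongs to an inner start, shared with a GENCODE transcript, that lies 7128 bases inside the gene from its annotated 5′ end. The outer start was not examined. The Xiap start with 20 CpG likewise lies 8719 bases inside its gene. The motif TATAAA, searched on both strands, occurred in 1 of the 11 promoters, the Xiap start with 2 CpG, and in 13.6% of all 32851 promoters. In this Xiap promoter the motif lay on the opposite strand at the upstream end, far from the start. That start lies 83 bases from the nearest annotated transcript start. The extremes, Apaf1 (chr10:91082694-91082993, minus strand) and Casp8 (chr1:58802252-58802551, plus strand), are shown with each CpG in capitals.
Apaf1: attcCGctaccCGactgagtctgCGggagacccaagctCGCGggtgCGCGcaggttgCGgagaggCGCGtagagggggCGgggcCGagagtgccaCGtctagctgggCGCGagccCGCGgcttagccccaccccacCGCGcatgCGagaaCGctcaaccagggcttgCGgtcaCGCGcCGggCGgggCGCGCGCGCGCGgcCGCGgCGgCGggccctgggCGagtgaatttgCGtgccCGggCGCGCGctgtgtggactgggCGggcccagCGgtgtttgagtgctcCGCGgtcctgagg
Casp8: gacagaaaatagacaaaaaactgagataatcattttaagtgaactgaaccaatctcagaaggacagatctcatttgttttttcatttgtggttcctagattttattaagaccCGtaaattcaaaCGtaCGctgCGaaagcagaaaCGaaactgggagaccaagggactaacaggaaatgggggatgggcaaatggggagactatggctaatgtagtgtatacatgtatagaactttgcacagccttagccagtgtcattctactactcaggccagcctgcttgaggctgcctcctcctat

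The identity of the cells was checked by lineage markers. All 7 melanocyte markers were above 1 CPM, from 6.76 (Sox10) to 12.78 log2 CPM (Dct). Of 8 markers of other cell types, Krt5 had no reads, whereas Pdgfra (3.28 CPM), Col1a1 (1.70 CPM) and Pecam1 (1.21 CPM) were above 1 CPM, a share of 37.5%. Pecam1 was named after its value was seen. The part of other cells in the members' levels was not tested.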

How the data were processed

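RNA was sequenced from 3 OLO and 3 OZO cultures of B16F10 cells. According to the methods and the submitters' processing notes, the authors aligned reads to mm10 with HISAT2 (version 2.1.0), counted them with featureCounts (version 2.1.1) and used limma-voom (limma version 3.58.1). Strand setting, annotation release and filters are not given in the sources used here. The library kit was directional. The deposited value used is the average log2 CPM over the 6 libraries, to each of which voom adds 0.5 reads. The authors' table also holds 5 columns of their own comparison of OZO against OLO (log2 fold change, moderated statistic, p-value, adjusted p-value and log odds), which were not used. No single library was analysed, so the planned test between groups was not run.

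Average library size, as a geometric mean after scaling, was solved from the lowest value, which the 6025 genes without reads share, and reads per library follow from it. The depth of each library is unknown. Percentiles are shares of genes at a lower level. Those of levels per kilobase are among the 19227 genes with reads and a transcript length. Positions and lengths are from GENCODE M21 (GRCm38, the same build as mm10), in which 23906 rows were found, and the longest coding transcript gave the length. Promoters are from RefSeq. Members, lists and lengths were chosen with earlier results of these data known. By the rule for named genes, all members were named, the highest and lowest 2 of each list by log2 CPM and genes without reads could be named, and other list genes named are marked. Some listed genes are not reported here. The calculation was tested on simulated counts. Python 3.11.15, numpy 2.4.6, pandas 2.3.3, scipy 1.17.1, biopython 1.88 and matplotlib 3.10.9 were used.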

Additional observations from a re-analysis of the deposited data

How the results depend on the processing

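No paired analysis was possible because each gene has only 1 mean over both groups. For the same reason DESeq2, another filter or pseudocount and leaving out single libraries were not run. The median level of the 8 members per kilobase was 4.11 log2 CPM with the longest transcript, 5.25 with the coding length and 3.31 with all exons together, an alternative chosen after seeing the data. Coding lengths are shorter and exon unions longer than transcripts, which sets the direction of both shifts. Casp6 and Casp9 held the last 2 places with each length, but exchanged them with all exons together, and the highest member was Casp8 with transcripts and with all exons together and Xiap with the coding length. The median percentile of the members was 80.0 among genes with reads, 84.4 among all rows of the table and 64.3 among genes with at least 1 CPM, since weak genes are added or removed below them. Depth did not limit the levels of the members, whereas genes near -5.30 log2 CPM rest on few reads.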
